A study of Mus musculus with 4 samples.

Results

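The genes described here are 50 genes that fold, translocate, modify and degrade proteins in the endoplasmic reticulum (ER), chosen by symbol from the 32227 genes counted in mouse islet cells by droplet single-cell RNA-Seq. All 50 symbols were found in the count tables. They were divided by function into 10 chaperones and cofactors, 6 disulfide isomerases and oxidases, 2 prolyl isomerases, 9 translocon genes, 5 signal peptidase genes, 7 N-glycosylation genes, 7 degradation genes and 4 stress sensors and factors. The mutant mice were Myt3IM/IM. They carried on both alleles an insertion of 12 bp in Myt3 (St18), a zinc finger transcription factor gene. The insertion lies in an exon and breaks an upstream open reading frame, and as it was made in the fertilized egg it is not limited to islet cells. The controls, labelled only as controls, were wild-type mice bred from the same crosses of heterozygotes according to the study's methods. The line had been backcrossed, and its strain background is described in 2 ways (CBA/BL6j or C57Bl/6j). The labels describe adult mice on a normal diet and the PIPseq platform, whereas the study's methods describe mice on a high-fat diet and inDrop-Seq. The diet and the platform are therefore uncertain for every library. According to the study's methods, islets of several mice of both sexes were pooled for each library. Its results, however, state a focus on male mice in the high-fat diet work, so that the sex is uncertain too. The age in months is not given in the labels.

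Insulin is made as preproinsulin on ribosomes at the ER membrane, enters the lumen through the Sec61 channel, loses its signal peptide to signal peptidase and folds and forms disulfide bonds with the help of chaperones and oxidases. Proteins that fail to fold are drawn back to the cytosol and degraded, a route called ER-associated degradation. The unfolded protein response, which is signalled by the sensors Ire1α (Ern1), Atf6 and Perk, raises many of these genes when the load on the ER grows, and β cells are known for a high basal load.

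Many genes of this response carry a promoter element to which Atf6 and Xbp1 can bind. It is called the ER stress response element, or ERSE, and was searched as CCAAT followed by any 9 bases and CCACG. A shorter form, called ERSE-II, was searched as ATTGG followed by any 1 base and CCACG. The 250 bases before the start of the gene were searched on both strands in the RefSeq promoters of GRCm38.p6, which is not the GRCm39 build that the processing notes list for the counts, so that the coordinates below hold for GRCm38.p6 alone. Promoters were found for 41 of the 50 genes. ERSE was present in 10 of the 41 (24.4%), namely Hspa5, Hsp90b1, Dnajc3, Calr, Canx, Pdia6, Ero1b, Creld2, Syvn1 and Derl3, against 35 of 27025 genes in the whole table (0.130%). ERSE-II was present in Herpud1 and in 10 of the 27025 genes (0.0370%). The motifs were searched separately, and no piece shown holds both. The following pieces show the match in capitals with 20 bases on either side, and were chosen because these genes include members with high, intermediate and low ratios between the libraries. In Ero1b and Derl3 the element lies in the opposite orientation, so that the capitals show its reverse complement.
Hspa5 (chr2:34772005-34772063, plus strand): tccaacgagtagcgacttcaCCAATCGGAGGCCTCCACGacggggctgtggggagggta
Canx (chr11:50325780-50325838, minus strand): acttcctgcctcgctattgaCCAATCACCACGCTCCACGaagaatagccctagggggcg
Pdia6 (chr12:17266471-17266529, plus strand): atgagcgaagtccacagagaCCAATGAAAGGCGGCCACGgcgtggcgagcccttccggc
Ero1b (chr13:12565662-12565720, plus strand): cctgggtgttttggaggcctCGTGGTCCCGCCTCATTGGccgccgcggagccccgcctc
Derl3 (chr10:75893222-75893280, plus strand): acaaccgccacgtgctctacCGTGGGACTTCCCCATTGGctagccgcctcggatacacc
Herpud1 (chr8:94386357-94386407, plus strand, ERSE-II): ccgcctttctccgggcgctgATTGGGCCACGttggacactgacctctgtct
The match ended 46 bases before the gene start in Hspa5, 79 in Pdia6, 126 in Canx, 137 in Derl3 and 182 in Ero1b.

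Counts of 3 libraries were used, namely mutant 1, mutant 2 and control 2. Counts of control 1 were not used here, so that each genotype comparison rests on 1 control library. The libraries held 3023, 2045 and 2308 barcodes and 8448466, 9013499 and 36985253 UMIs, and shared no barcode. Control 2 was therefore by far the deepest, and its batch entry in the labels differs from that of the mutants but is not a possible calendar date. Genotype, depth and batch entry cannot be told apart. β cells were defined by an insulin share (Ins1 and Ins2) of at least 20% of UMIs, and α and δ cells by at least 5% of Gcg or Sst. In the order mutant 1, mutant 2, control 2, which is kept wherever 3 library values stand together, this gave 2150, 1493 and 1995 β cells, 298, 220 and 36 α cells, and 21, 30 and 35 δ cells. As hormones chose the classes, the labels were checked with the other markers alone, per 10000 non-hormone UMIs. The 4 β markers (G6pc2, Pcsk1, Slc2a2 and Mafa) stood at 51.5, 51.1 and 32.3 in β cells and at no more than 6.48 in α or δ cells. The 5 α markers stood at 126, 162 and 169 in α cells and at 14.1, 16.6 and 53.3 in β cells, the last almost wholly Ttr (68775 of 70129 UMIs). The 3 δ markers stood at 17.6, 12.8 and 20.3 in δ cells and at no more than 0.293 in β cells, but Ghsr had only 0, 1 and 0 UMIs in δ cells. The part of the higher α marker level of the control 2 β cells in the ratios below was not tested. All 12 acinar markers together took 0.762, 0.367 and 0.926 of 10000 UMIs in the β cells. The counts do not read the insertion, so Myt3 (St18) cannot check the labels; it had 573, 747 and 2855 UMIs in β cells.

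The first comparison asked whether the ER genes differed between the mutant libraries and control 2 in β cells. Most were lower in both mutant libraries. The 50 genes together took 2.89% of the non-hormone UMIs of β cells in each mutant library and 4.23% in control 2. Of the 50 genes, all of which averaged at least 20 UMIs per 1000000 after scaling (counts per 1000000, CPM), 38 were lower than control 2 by more than 0.5 on the log2 scale in both mutant libraries, 1 was higher and 11 were neither. Among all 4720 genes with that mean, 24.5% were lower and 20.8% higher by the same rule. The median log2 ratio of the 50 genes was -1.08 in mutant 1 and -0.96 in mutant 2, and the median mean ratio of all genes was -0.02. For 49 of the 50 genes the smaller of the 2 ratios exceeded the gap between the mutant libraries, the exception being Wfs1, as it did for 78.7% of all genes. With CPM of all UMIs in place of TMM (trimmed mean of M-values) scaling, all genes had a median ratio of 0.41, and 26 members were lower and 3 higher, against 12.1% and 41.5% of all genes. In the edgeR quasi-likelihood test of 2 libraries against 1, in which the lone control library is assumed to vary as the mutant libraries do, 43 of the 50 genes were lower and 3 higher (Ero1b, Manf and Derl2). Of all genes 34.1% were lower and 30.9% higher in that test.

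**Figure D1:**
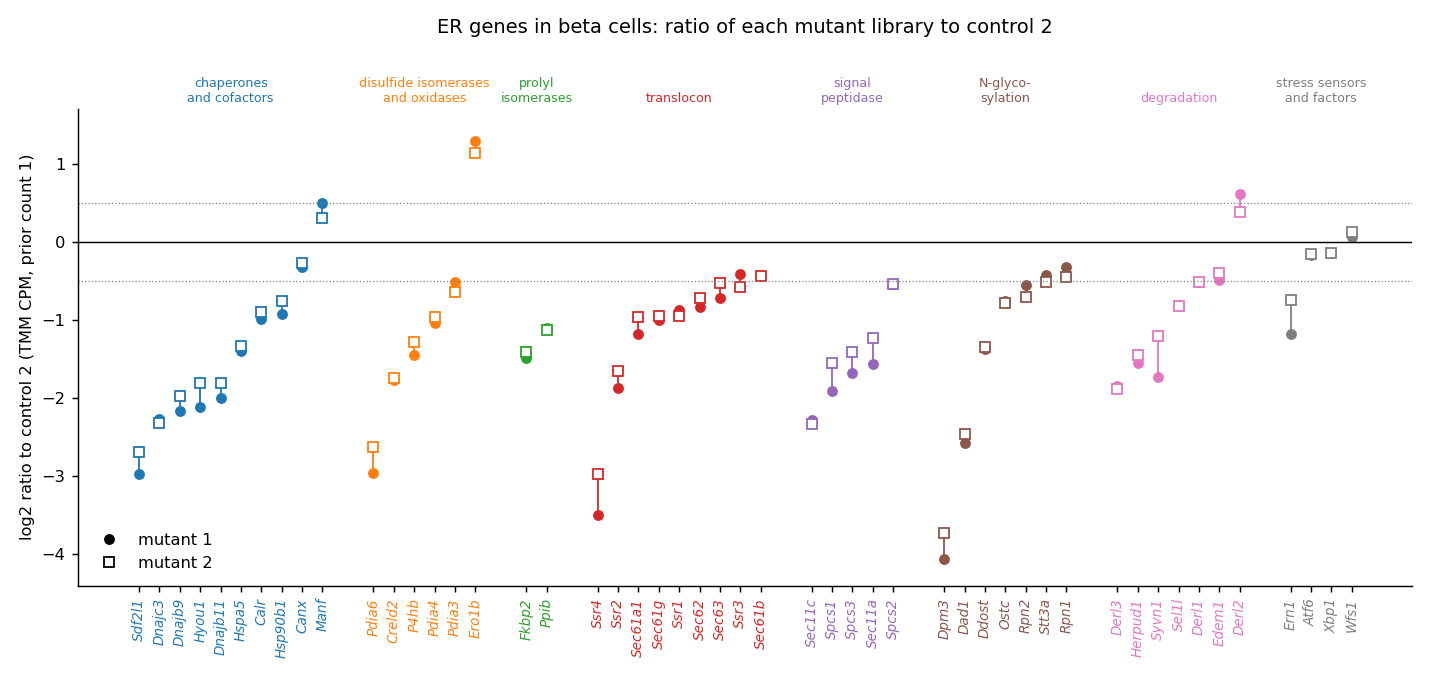
Log2 ratio of mutant 1 (filled circles) and mutant 2 (open squares) to control 2 in β cells for the 50 ER genes, ordered by function (y axis, TMM-scaled CPM with a prior count of 1; dotted lines, the limit of 0.5 in either direction). Of the 50 genes, 38 lie below the lower line in both mutant libraries, and Ero1b lies above the upper line in both.

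Of the chaperones and cofactors, 8 of 10 were lower, with a median ratio of -1.63. Hspa5 (BiP), the main Hsp70 of the ER lumen, was counted 6170 times in mutant 1, 6909 times in mutant 2 and 60914 times in control 2. After scaling, its level was 798, 834 and 2102 CPM. Both mutant libraries were thus below control 2, at log2 ratios of -1.40 and -1.33 (edgeR -1.36 ± 0.15 SE, adjusted p = 2.14e-06). Sdf2l1, a cofactor that keeps BiP clients soluble, was the lowest of the chaperones, with 216, 281 and 6365 UMIs. Its levels were 27.9, 33.9 and 219.6 CPM and its ratios -2.97 and -2.69. The BiP cochaperones Dnajc3, Dnajb9 and Dnajb11 and the nucleotide exchange factor Hyou1 had mean ratios between -2.30 and -1.90. Hsp90b1 (Grp94), the Hsp90 of the ER, and Calr, a lectin chaperone of glycoproteins, had smaller differences, with mean ratios of -0.84 and -0.94. Canx, the membrane-bound lectin chaperone, had 3195, 3553 and 14960 UMIs and 413, 429 and 516 CPM. Its ratios were -0.32 and -0.27, and it did not pass the edgeR test (adjusted p = 0.079). Manf, a secreted protein that binds BiP, went the other way, with 1067, 934 and 759 CPM. Its ratios were 0.49 and 0.30, below the limit of size, and its edgeR change of 0.40 ± 0.16 SE had an adjusted p of 0.037, which rose to 0.12 with DESeq2 size factors and 0.24 with TMM over all genes.

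The disulfide genes held both the member that was highest in the mutants and some of the lowest. Pdia6, a protein disulfide isomerase, had 405 and 548 UMIs in the mutant libraries and 11798 in control 2, which gave 52.4, 66.1 and 407.1 CPM. Its ratios were -2.96 and -2.62, or 7.76-fold and 6.15-fold lower. Ero1b, the oxidase that is enriched in pancreatic cells and passes electrons from these isomerases to oxygen, had 27141, 25977 and 41465 UMIs. After scaling it stood at 3511 and 3135 CPM in the mutant libraries and 1431 CPM in control 2. It was the most abundant of the 50 genes in both mutant libraries, whereas Hspa5 led in control 2, and it was the only one that was higher by size, at ratios of 1.30 and 1.13 (edgeR 1.22 ± 0.17 SE, adjusted p = 2.77e-05). The other isomerases P4hb and Pdia3 had mean ratios of -1.36 and -0.58, with Pdia4 between them. Creld2, a secreted protein with disulfide isomerase motifs, had -1.76. All disulfide genes other than Ero1b were thus lower by size. Both prolyl isomerases were lower. Fkbp2 had 177, 188 and 497 CPM and ratios of -1.49 and -1.41, and Ppib (cyclophilin B) had 60.9, 60.3 and 131.6 CPM and ratios of -1.11 and -1.12.

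Of the 9 translocon genes, 7 were lower, with a median ratio of -0.91. Sec61b, a small subunit of the channel, was the most abundant, with 2164, 2315 and 10961 UMIs and 280, 279 and 378 CPM. Its ratios of -0.43 and -0.44 did not reach the limit. The other channel subunits Sec61a1 and Sec61g had mean ratios of -1.07 and -0.97. Ssr4, the δ subunit of the translocon-associated protein complex, stood far apart from the other subunits of that complex. It had 195, 300 and 8245 UMIs, or 25.2, 36.2 and 284.5 CPM, and ratios of -3.49 and -2.97, against mean ratios of -0.91, -1.76 and -0.49 for Ssr1, Ssr2 and Ssr3. Sec62 and Sec63, which serve translocation after synthesis, had mean ratios of -0.78 and -0.62.

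All 5 signal peptidase genes were lower, with a median of -1.54. Sec11c, a catalytic subunit, had 479, 497 and 8732 UMIs and 62.0, 60.0 and 301.3 CPM. Its ratios were -2.28 and -2.33. The other catalytic subunit, Sec11a, had 133, 180 and 1475 UMIs and a mean ratio of -1.39. Spcs2, an accessory subunit and the most abundant of the 5 in the mutant libraries but below Sec11c and Spcs1 in control 2, had 198, 198 and 287 CPM and ratios of -0.54 and -0.54, close to the limit. Spcs1 and Spcs3 had mean ratios of -1.73 and -1.54.

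Of the 7 N-glycosylation genes, 5 were lower, with a median ratio of -0.77. Dpm3, which anchors the synthase of dolichol-phosphate mannose, had only 48 and 65 UMIs in the mutant libraries and 3046 in control 2. Its level was 6.21, 7.84 and 105.1 CPM, with 95% Poisson intervals (counting error only) of 4.58 to 8.23 CPM in mutant 1 and 101 to 109 CPM in control 2. The ratios of -4.07 and -3.73 were the lowest of the 50 genes (16.8-fold and 13.3-fold lower). Dad1, a small subunit of oligosaccharyltransferase, had a mean ratio of -2.51. Ddost, also a subunit of that enzyme and the most abundant of this group in control 2 but below Rpn1 and Rpn2 in the mutant libraries, had 1746, 1916 and 17007 UMIs and ratios of -1.38 and -1.34. By contrast Rpn1, a large subunit of the same enzyme, had 313, 286 and 392 CPM and ratios of -0.32 and -0.46, and Stt3a, a catalytic subunit, had a mean ratio of -0.47. Neither reached the limit, and with CPM of all UMIs the mean ratio of Rpn1 was 0.026.

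Of the 7 degradation genes, 5 were lower. Herpud1, which scaffolds the retrotranslocation complex, had 1783, 2049 and 19599 UMIs and 231, 247 and 676 CPM, and its ratios were -1.55 and -1.45. The ubiquitin ligase Syvn1 (Hrd1) and its partner Sel1l had mean ratios of -1.47 and -0.82. The derlins, membrane proteins of the same complex, differed in direction. Derl3 had 175, 182 and 2355 UMIs and ratios of -1.84 and -1.88, Derl1 had a mean ratio of -0.51, and Derl2 had 216, 184 and 141 CPM and ratios of 0.62 and 0.38. Derl2 passed the edgeR test (0.50 ± 0.15 SE, adjusted p = 0.0078) but not the limit of size in mutant 2. Edem1, a lectin that directs glycoproteins to degradation, had ratios of -0.49 and -0.39.

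The sensors and factors had the smallest median ratio, at -0.15. Xbp1, the transcription factor that is spliced by Ire1α, had 1795, 1914 and 7421 UMIs and 232, 231 and 256 CPM. Its ratios were -0.14 and -0.15 (adjusted p = 0.36). Atf6 had 99.6, 100.8 and 111.9 CPM and ratios of -0.17 and -0.15 (adjusted p = 0.28). Wfs1 (wolframin), an ER membrane protein that restrains Atf6, had 122, 128 and 118 CPM and ratios of 0.06 and 0.12 (adjusted p = 0.55). The levels of these genes thus lay close together in the 3 libraries, and their direction changed with the scaling (0.27 for Xbp1 and 0.26 for Atf6 with CPM of all UMIs, and -0.014 for Wfs1 with DESeq2 size factors). Ern1, which encodes Ire1α, was the exception among the members of this group, with 210, 305 and 1783 UMIs and ratios of -1.18 and -0.74. The sensor Perk (Eif2ak3) is not a member and was counted with the other ER genes below. It had 259, 278 and 1785 UMIs and ratios of -0.88 and -0.88, and was thus also lower by size. The spliced form of Xbp1 cannot be read from counts per gene.

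The motif and the length of the transcript were set beside these ratios as descriptions. The 10 genes with ERSE had a median ratio of -1.42, and 8 of them were lower by size, against 38 of all 50 genes. Their range ran from -2.79 for Pdia6 to 1.21 for Ero1b, which share the element shown above. The members with a promoter but no ERSE had a median of -0.96. Across the 50 genes, the mean ratio correlated with the length of the longest coding transcript in GENCODE vM21 (Spearman's rho 0.44 across genes, which are not independent replicates), against 0.15 over 4635 genes. The 5 members shorter than 1000 nt (Sec61b, Ssr4, Dpm3, Sec11c and Ppib) had a median ratio of -2.30 and the others -0.96. Over all genes, 298 were shorter than 1000 nt, with a median of -0.48 against -0.01 for the rest. The part of length in the ratios was not tested.

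**Figure D2:**
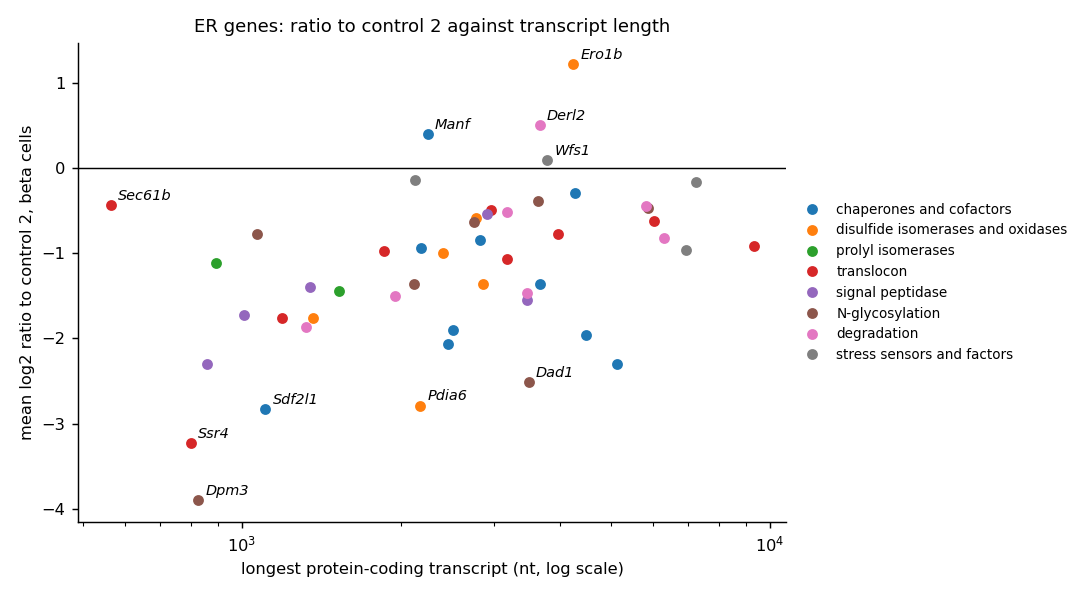
Mean log2 ratio of the mutant libraries to control 2 in β cells (y axis) against the length of the longest protein-coding transcript (x axis, nt, log scale) for the 50 ER genes, coloured by function. Dpm3 and Ssr4 are among the 5 members shorter than 1000 nt, whose median ratio was -2.30, but Sec61b at 564 nt had -0.44 and Dad1 at 3491 nt had -2.51.

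The second comparison asked how the ER genes differ between the endocrine cell types, within each library. Hormone and mitochondrial genes were left out, since hormones chose the cells. The 50 genes took 2.89%, 2.89% and 4.23% of non-hormone UMIs in the β cells, 1.18%, 1.17% and 1.32% in α cells, and 1.66%, 1.42% and 1.61% in δ cells. Every β value was above every α and δ value, and the spread between the libraries was wider in β than in α cells. In edgeR with library as a covariate, 43 of the 50 genes were lower in α than in β cells and 0 were higher, with a median change of -1.12. Among 7884 genes 15.5% were lower and 15.2% higher, and the median change was -0.01. At an unadjusted p under 0.05 the counts were also 43 and 0 (20.1% and 19.8% of all genes), and in DESeq2 they were 40 and 0 (10.6% and 10.8%). In δ cells 35 of the 50 genes were lower and 0 higher, with a median of -1.10, against 7.39% lower, 6.39% higher and a median of -0.08 over all genes. At an unadjusted p under 0.05 they were 42 and 0 (14.2% and 11% of all genes), and in DESeq2 27 and 0 (4.91% and 5.81%). Without control 2 the δ count was 17, against 5.94% of all genes. A total of 33 genes were lower in both α and δ cells, which were compared with the same β cells, against 5.4% of all genes.

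**Figure D3:**
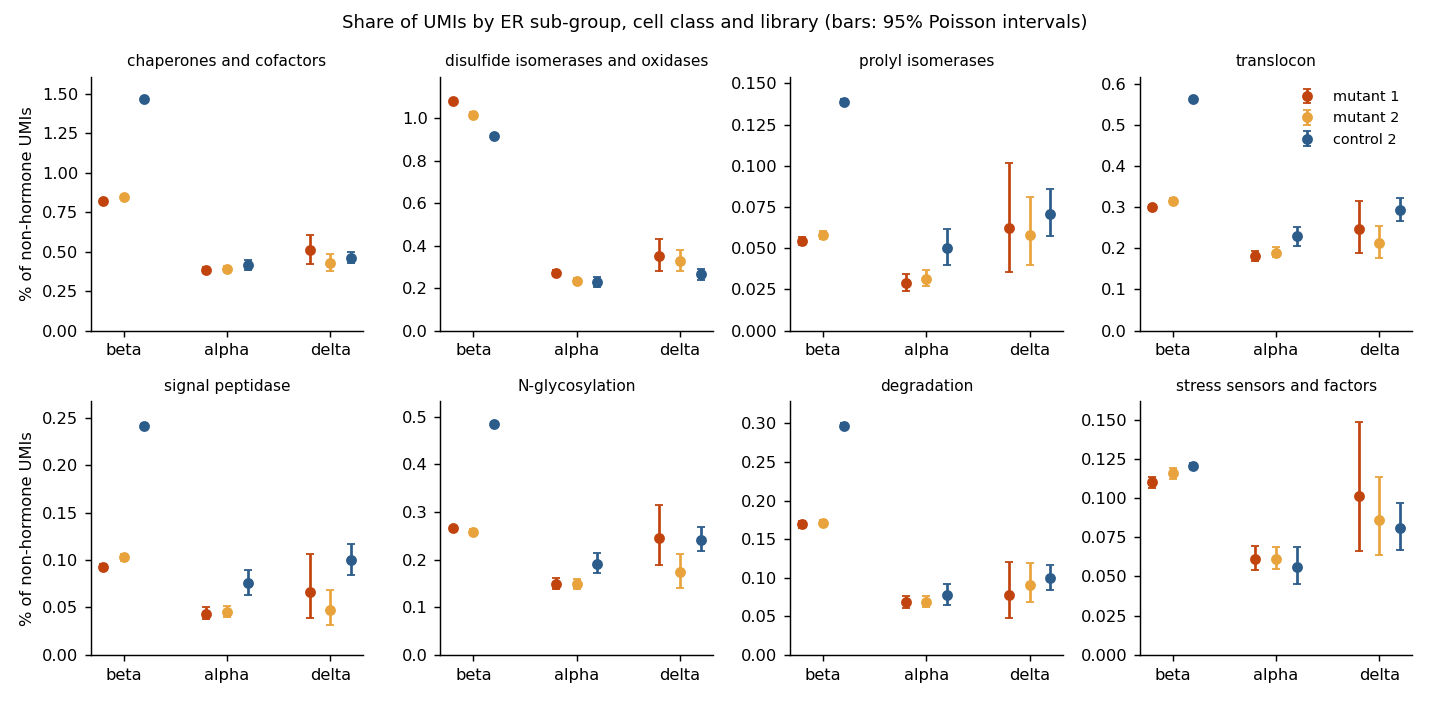
Share of non-hormone UMIs (y axis, %) taken by each functional group of ER genes in β, α and δ cells of mutant 1, mutant 2 and control 2. Bars are 95% Poisson intervals, which cover counting error only. In 7 of the 8 groups the β value of control 2 is the highest point. The disulfide genes together are higher in the mutant β cells (1.08% and 1.02%) than in control 2 (0.919%). Ero1b alone held 27141 of their 36623 UMIs in mutant 1, 25977 of 36172 in mutant 2 and 41465 of 120878 in control 2. Every other disulfide gene was lower by size in the mutant β cells when hormone genes were kept in the scaling. With hormone and mitochondrial genes left out, Pdia3 had ratios of -0.44 and -0.59 and did not reach the limit in mutant 1.

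The degradation genes showed the largest median difference from β cells of the 8 groups in α cells (-1.75) and in δ cells (-1.73). All 7 were lower in each. By summed share of non-hormone UMIs, the disulfide genes differed most in every library. Their β share was 3.99, 4.38 and 4.03 times that of α cells, against 2.49, 2.48 and 3.84 for the degradation genes. Against δ cells it was 3.08, 3.11 and 3.47 times, compared with 2.17, 1.88 and 3.00. Derl3 had 54.4, 52.0 and 185.9 CPM of non-hormone UMIs in β cells and 7.79, 8.63 and 32.3 in α cells. It rested on 3, 4 and 5 UMIs in α and on 0, 2 and 1 UMIs in δ cells. The fitted changes were -2.62 ± 0.37 SE in α (adjusted p = 6.05e-07) and -3.36 ± 0.62 SE in δ cells (adjusted p = 1.25e-04). Edem1, Sel1l and Syvn1 were lower by -2.09, -1.87 and -1.75 in α cells, and Herpud1 by -1.07. Edem1 rested on 15, 14 and 6 UMIs and Syvn1 on 3, 7 and 5 UMIs in α cells. All 10 chaperones and cofactors were lower in α cells, with a median of -1.34. Hspa5 stood at 1917, 1973 and 4809 CPM in β, 994, 1031 and 1245 in α, and 856, 751 and 1184 in δ cells. All α and δ values of Hspa5 were below all its β values (α, -1.28 ± 0.20 SE, adjusted p = 5.71e-06). Sdf2l1 had 67.1, 80.3 and 502.5 CPM in β and 15.6, 8.63 and 38.7 in α cells, the latter from 6, 4 and 6 UMIs, and its change of -3.09 ± 0.35 SE was the lowest in α cells (adjusted p = 9.93e-09). Manf was lower by -1.87 in α and -2.46 in δ cells.

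Ero1b, the most abundant member in the β cells of the mutant libraries, was among the 3 lowest in both other classes. It had 8432, 7419 and 3274 CPM in β cells, 1256, 986 and 542 in α cells and 709, 831 and 409 in δ cells. Each α and δ value lay below each β value, at changes of -2.76 ± 0.21 SE (adjusted p = 3.05e-13) and -3.21 ± 0.23 SE (adjusted p = 1.84e-13). All 6 disulfide genes were lower in α cells. The other groups differed less in α cells. The translocon genes had a median of -0.62 and the N-glycosylation genes -0.64. Of the members that passed the test, Sec63 (-0.59), Sec62 (-0.59) and Atf6 (-0.55, adjusted p = 0.046) were the nearest to β cells. Atf6 had 239, 238 and 256 CPM in β and 228, 168 and 83.9 in α cells, the last from 13 UMIs. Its difference was thus widest in control 2. Over the alternatives, Atf6 lost the threshold in 5, Sec62 in 4 and Sec63 in 3. The members that did not pass in α cells were Ssr2, Ssr4, Sec11a, Dad1, Stt3a, Dpm3 and Ern1. Ern1 had the only positive change in α cells (0.33 ± 0.22 SE, adjusted p = 0.28), with 65.2, 87.1 and 140.8 CPM in β and 109, 110 and 116 in α cells. Wfs1 rested on 29, 48 and 5 UMIs in α and on 9, 18 and 22 UMIs in δ cells. Its change was -1.97 ± 0.23 SE in α (adjusted p = 2.31e-08) and -0.41 ± 0.27 SE in δ cells (adjusted p = 0.37). The difference between these changes was not tested. In δ cells the members that passed nearest to β cells were Ddost (-0.72), Xbp1 (-0.81) and Spcs1 (-0.82, adjusted p = 0.049).

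**Figure D4:**
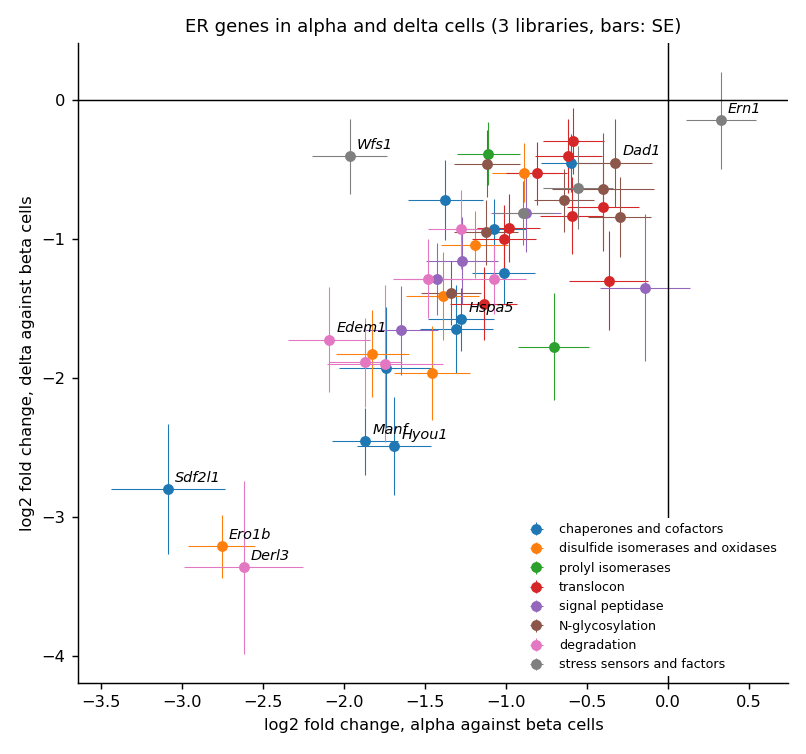
Log2 fold change of each ER gene in α cells (x axis) and in δ cells (y axis) against β cells, from edgeR on 3 libraries with library as a covariate; bars are standard errors and colours mark function. Sdf2l1, Ero1b and Derl3 lie lowest on both axes, and only Ern1 lies to the right of 0.

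Insulin UMIs were also present in α and δ cells. Insulin took a median of 3.58%, 3.47% and 3.76% of the UMIs of α cells, against 39.9%, 42.1% and 55.1% of β cells (median depth 1784, 2899 and 6530.5 UMIs in α and 2879.5, 4615 and 16296 in β cells), and 4.52%, 4.45% and 4.63% of δ cells. Its part in the α and δ levels was not tested. Ppy and Pyy together took 182, 203 and 529 of 10000 UMIs in α cells and 192, 229 and 576 in δ cells. The α and δ cells of control 2 thus held more of these hormones than those of the mutant libraries. The part of this difference in the α and δ ratios to control 2 below was not tested. Cells with insulin of at least 20% and another hormone of at least 2% were left out of the β cells as possible doublets. Any of them whose Gcg or Sst was at least 5% and above the other hormones counted as α or δ cells. Those left in no class numbered 33, 27 and 16, and no doublet caller was run.

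The third comparison set the mutant libraries against control 2 in α and δ cells. Here too hormone and mitochondrial genes were left out before scaling, so that the β ratios differ slightly from those given above. Of the 47 members with a mean of at least 20 CPM in α cells, 15 were lower and 6 higher (Manf, Ero1b, Sec61b, Derl2, Atf6 and Wfs1), against 18.5% and 19.7% of all genes, and the median was -0.26. The median in δ cells was -0.54 over 49 members, of which 17 were lower and 2 higher, but the median of all genes there was itself -0.25, and 18.8% of genes were lower and 11.1% higher. The genes with the lowest ratios in β cells were also low in α cells. Dpm3 had 5, 14 and 17 UMIs in α cells and a mean ratio of -2.25, and Ssr4 had 19, 55 and 43 UMIs and -1.78. Ero1b was higher in every class, with mean ratios of 1.28 in β, 1.07 in α and 0.90 in δ cells. These comparisons rest on 36 α and 35 δ cells of control 2 and have no replicate of the control.

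The difference of the ratios between α and β cells was tested as an interaction in edgeR, a test added after the data had been seen. It has no replicate of the control, so that its SEs and p-values take their spread from the mutant libraries. In 11 members the ratio was higher in α than in β cells and in 0 it was lower, against 1.65% of all genes higher and 1.41% lower. At an unadjusted p under 0.05 the counts were 29 higher and 0 lower (6.98% and 5.73% of all genes). Hspa5 had ratios of -1.32 and -1.28 in β and -0.28 and -0.23 in α cells, a difference of 1.01 ± 0.25 SE (adjusted p = 0.0037). Calr had -0.91 and -0.85 in β and 0.04 and 0.10 in α cells (difference 0.92 ± 0.21 SE, adjusted p = 9.98e-04). The same test for δ cells called 0 members, against 0.228% of all genes higher and 0.698% lower. At an unadjusted p under 0.05, 9 members were higher and 0 lower (3.31% and 7.04% of all genes).

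The fourth comparison related the ER genes to the insulin share of each β cell. The β cells of each library were divided into 5 bins of insulin share, whose medians ran from 25.4% to 49.5% in mutant 1, from 26.1% to 52.0% in mutant 2 and from 35.8% to 67.1% in control 2. The 50 genes took 2.48% of non-hormone UMIs in the lowest and 3.23% in the highest bin of mutant 1. The corresponding shares were 2.49% and 3.14% in mutant 2 and 3.57% and 4.68% in control 2. The share thus rose at each step from the lowest to the highest bin in all 3 libraries. In edgeR with library as a covariate, 30 of the 50 genes were higher and 0 lower in the highest bin, with a median change of 0.56, against 12.3% higher and 9.49% lower and a median of 0.02 over all genes. At an unadjusted p under 0.05 they were 33 and 1 (19% and 15.8% of all genes), and in DESeq2 23 and 0 (4.56% and 3.93%). In 39 of the 50 genes the top bin was above the bottom bin in all 3 libraries, against 27.6% of all genes.

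Depth rose with the insulin share as well, from a median of 1306.5 to 4038 UMIs per cell in mutant 1, 1674 to 6858.5 in mutant 2 and 6038 to 25367 in control 2. When the bins were formed within 10 classes of depth, 20 members remained higher, all of them among the 30, and 1 (Derl2) was lower, with a median of 0.31, against 7.67% of genes higher and 6.28% lower. In single cells thinned to 1000 UMIs, the summed members and the insulin share had a Spearman's rho of 0.23 in mutant 1 (n = 1890 cells), 0.20 in mutant 2 (n = 1383) and 0.27 in control 2 (n = 1995). The rho of the members with cell depth was 0.11, 0.13 and 0.15, and that of insulin share with depth 0.39, 0.52 and 0.48. These are weak relations of sparse counts, as the median was 14, 14 and 16 member UMIs per cell.

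**Figure D5:**
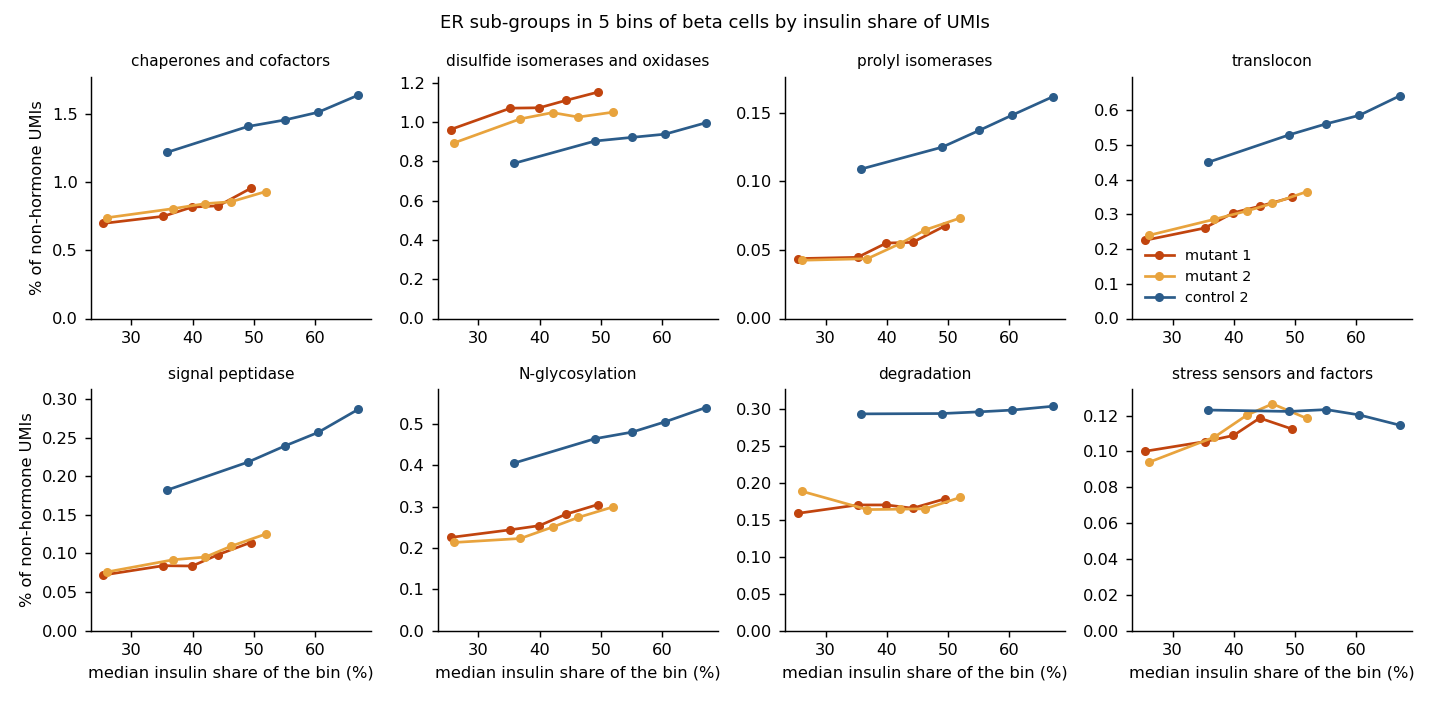
Share of non-hormone UMIs (y axis, %) taken by each functional group in 5 bins of β cells ordered by insulin share (x axis, median of the bin, %), for mutant 1, mutant 2 and control 2. Every group except the degradation genes and the sensors and factors is higher in the top than in the bottom bin of every library. From the bottom to the top bin, the degradation genes go from 0.159% to 0.178% in mutant 1, from 0.189% to 0.180% in mutant 2 and from 0.293% to 0.303% in control 2.

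The largest changes were those of Dpm3, Ssr4 and Sdf2l1. Dpm3 rose from 6.62 to 28.3 CPM of non-hormone UMIs in mutant 1, from 6.97 to 39.1 in mutant 2 and from 105 to 396 in control 2 (1.96 ± 0.20 SE, adjusted p = 2.66e-05). Over all bins Dpm3 had only 48 and 65 UMIs in the mutant libraries, so that its bottom-bin levels there rest on few UMIs. Ssr4 rose from 35.3 to 101.5, from 44.1 to 130.1 and from 367 to 973 CPM (1.46 ± 0.16 SE, adjusted p = 3.90e-05), and Sdf2l1 from 41.9 to 92.5, 48.8 to 101.3 and 255 to 706 CPM (1.33 ± 0.16 SE, adjusted p = 9.94e-05). These 3 genes were also higher within classes of depth (1.42, 0.92 and 0.97). Among the chaperones 8 of 10 were higher, and Hyou1 and Dnajb9 rose by 1.27 and 1.16. The smallest changes that passed were those of Hsp90b1 (0.38, adjusted p = 0.041), Canx (0.47, adjusted p = 0.031) and Ddost (0.50, adjusted p = 0.014), none of which passed within classes of depth. Hspa5 had 1822 and 2190 CPM in the bottom and top bins of mutant 1, 1886 and 2074 in mutant 2 and 3532 and 5605 in control 2, and did not pass (0.38 ± 0.14 SE, adjusted p = 0.056).

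All 5 signal peptidase genes were above 0, 4 of which passed, with a median of 0.87. Of the 9 translocon genes 7 were higher, and of the 7 N-glycosylation genes 4. Only 1 of the 7 degradation genes (Syvn1, 0.79) and 0 of the 4 sensors and factors passed (edgeR; 1 and 0 higher, 1 and 0 lower, at an unadjusted p under 0.05). Of the disulfide genes, Pdia6 (1.16), P4hb (0.77), Creld2 (0.64) and Pdia3 (0.57) were higher, and so were both prolyl isomerases. Creld2 and Pdia3 did not pass within classes of depth, and neither did Syvn1 (0.45, edgeR adjusted p = 0.10). Pdia4 did not pass in either form (0.26, edgeR adjusted p = 0.18 in the main bins). The levels of Ero1b did not follow the bins, with 8198 and 7846 CPM in the bottom and top bins of mutant 1, 6979 and 6806 in mutant 2 and 2857 and 3267 in control 2 (0.05 ± 0.13 SE, adjusted p = 0.81). Manf had a change of -0.04 ± 0.12 SE (adjusted p = 0.84). Derl2 was the only member that was lower in the top bin by unadjusted p, with 498 and 442, 516 and 347, and 362 and 288 CPM (-0.34 ± 0.13 SE, adjusted p = 0.079). Ero1b, Manf and Derl2 are the 3 members that were higher in the mutant libraries by edgeR. Other members did not follow the bins either, among them Sel1l (-0.25), Atf6 (-0.12), Ern1 (-0.087) and Rpn2 (0.069), none of which passed. Of these, Sel1l, Ern1 and Rpn2 were lower by size in the mutant libraries and Atf6 was neither lower nor higher. The α markers other than hormones took 11.8 and 18.2 of 10000 non-hormone UMIs in the bottom and top bins of mutant 1, 14.3 and 20.1 in mutant 2 and 35.2 and 68.4 in control 2, and the acinar markers 1.93 and 1.47, 1.40 and 0.563, and 3.31 and 2.51. The δ markers other than Sst took 0.410 and 0.0911, 0.780 and 0.108, and 0.338 and 0.0365. The part of these markers in the bin differences was not tested.

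A wider list of 68 other ER genes, chosen by function and including the ER membrane complex, the signal recognition particle and further isomerases, served as a comparison in β cells. The 68 genes held 69 gene identifiers, as Ddit3 has more than 1, and each identifier was counted separately. Of the identifiers, 57 had a mean of at least 20 CPM, among them each one of Ddit3. By size, 32 of the 57 were lower, including each one of Ddit3, and 1 was higher. Their median ratio was -0.76, and 24.5% of all genes were lower and 20.8% higher. In edgeR 41 were lower and 3 higher, against 34.1% and 30.9%. Fkbp11, an ER prolyl isomerase, had 35 and 48 UMIs in the mutant libraries and 5091 in control 2, a mean ratio of -5.08. Its levels were 4.53, 5.79 and 175.6 CPM. Srp14, a subunit of the signal recognition particle, and Selenos, a selenoprotein of the degradation complex, had -2.78 and -2.55. Srp14 stood at 7.89, 10.3 and 62.0 CPM and Selenos at 14.1, 17.9 and 93.4 CPM. Fkbp11, Srp14 and Selenos thus lay under 20 CPM in both mutant libraries and reached that mean only through control 2. The count of lower genes includes them, so that it depends in part on this filter. The highest were Txndc12, a thioredoxin-like oxidoreductase (0.86), Tmem258, a subunit of oligosaccharyltransferase (0.44), and Emc10, a subunit of the ER membrane complex (0.39).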

How the data were processed

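Islet cells of Myt3IM/IM and control mice were counted in 4 labelled libraries, and the expression of control 1 was not used here. The deposited values are UMI counts in whole numbers for each cell, not normalized. The study's methods name DropEst as the counting software, in the same account that gives inDrop-Seq as the platform. Aligner and annotation are not given in the sources used here; the processing notes list GRCm39 and Seurat. Cells were kept from 500 UMIs and 100 genes upward and up to a mitochondrial share of 10%. β cells also had less than 2% of each of Gcg, Sst, Ppy and Pyy; α and δ cells had Gcg or Sst above the other hormones. UMIs were summed per library and class, since cells are not replicates, and libraries were scaled by TMM over genes averaging 20 CPM or more (prior count 1). edgeR 4.0.16 (quasi-likelihood, Benjamini-Hochberg over all genes, threshold 0.05) and, as an alternative, DESeq2 1.42.0 were run in R 4.3.3, with Python 3.11.15, numpy 2.4.6, scipy 1.17.1 and pandas 2.3.3. The fits were tested on simulated data. Where nothing ties libraries to separate sets of animals, p-values measure only the spread between libraries. Intervals cover counting error only.

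Members, lists and tests were chosen with earlier results of these data known. Values were given for the most abundant (mean over the libraries) and for the highest and lowest members of each group. They were also given for all member sensors and factors and for the 3 highest and 3 lowest called members of the class and bin comparisons. The 3 highest and 3 lowest other ER genes were included as well. Outside this rule, Canx, Calr and Hsp90b1 were named in the β-cell ratios, and Wfs1 and Ern1 in the cell classes. These and others, such as Perk, were named after their values were seen. Alternatives covered scaling, thinning to 1000 UMIs, depth (3000 to 6000 UMIs), the hormone, acinar and CPM limits, the prior count and each library left out. TMM over all genes, a hormone share of 2% and the interaction of genotype and cell type were added after seeing the data.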

Additional observations from a re-analysis of the deposited data

Results flagged for a closer look

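The ratio of the mutant libraries to control 2 differed between α and β cells in 11 of the 50 ER genes by an edgeR interaction term, which was added after the data had been seen. Of all 7884 genes, 130 (1.65%) had a higher and 111 (1.41%) a lower ratio in α cells. The control has no replicate, so that the SEs and p-values take their spread from the mutant libraries, and the same test for δ cells called 0 members by edgeR (9 higher and 0 lower at an unadjusted p under 0.05). All 11 differences were positive, that is, the mutant libraries lay higher relative to control 2 in α than in β cells. Among chaperones and disulfide isomerases, the difference was 1.01 ± 0.25 SE for Hspa5 (adjusted p = 0.0037), 0.92 ± 0.21 SE for Calr (adjusted p = 9.98e-04), 0.66 ± 0.20 SE for Pdia3 (adjusted p = 0.032) and 0.79 ± 0.22 SE for P4hb (adjusted p = 0.016). In the translocon it was 0.94 ± 0.27 SE for Sec61b (adjusted p = 0.026) and 1.45 ± 0.31 SE for Ssr4 (adjusted p = 4.49e-04). Of the oligosaccharyltransferase genes, Ostc had a difference of 1.02 ± 0.31 SE (adjusted p = 0.042), Rpn2 of 0.91 ± 0.26 SE (adjusted p = 0.026) and Ddost of 0.68 ± 0.21 SE (adjusted p = 0.049). Herpud1 had a difference of 0.99 ± 0.24 SE (adjusted p = 0.0021).

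Atf6 had a difference of 1.32 ± 0.41 SE (adjusted p = 0.042), with 88, 78 and 13 UMIs in the α cells of mutant 1, mutant 2 and control 2. All of these differences rest on the 36 α cells of control 2.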

How the results depend on the processing

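No paired analysis was possible because only 1 control library was analysed, so that by number only mutant 2 and control 2 could form a pair. In β cells, the count of members lower by size ran from 26 to 42 over the alternatives (38 in the main analysis), and the members' median less that of all genes from -1.04 to -0.88. The count of higher members was 3 with CPM of all UMIs, and 1 to 3 when a mutant library was left out (3 without mutant 2). With CPM of all UMIs, where the median of all genes was 0.41, the mean ratio turned to 0.026 for Rpn1 (0.028 by edgeR), 0.27 for Xbp1, 0.26 for Atf6 and 0.12 for Canx. That of Wfs1 turned to -0.014 with DESeq2 size factors, where the median of all genes was -0.13, and to -0.086 with TMM over all genes, where it was -0.21. With edgeR the lower members numbered 33 to 45. In β cells of 3000 to 6000 UMIs, 30 members were lower by size and 1 higher, against 20.9% and 20.7% of all genes.

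In α against β cells, leaving out a library gave 0 to 1 higher members (1 without control 2), and 35 to 42 lower. In δ cells the lower members fell to 20 with a Sst share of at least 10% (3, 4 and 18 cells), and to 17 to 29 when a library was left out (17 without control 2). For the insulin bins, the lower members were 1 with 2 bins, 1 within classes of depth, and 0 to 2 when a library was left out (2 without control 2), and the higher members ran from 20 to 33. With a hormone share of at least 10%, the members' median ratio less that of all genes was -0.31 in α cells and -0.049 in δ cells, against -0.26 and -0.30. The causes were not tested. Of the single named genes, the mean ratios in β cells moved by more than the spread of the mutant libraries in 136 comparisons, turned in 6 and did neither in 196, and the group medians there moved in 43 and did not in 61. By edgeR the β changes kept their direction and side of the threshold in 120, lost the threshold in 5, gained it in 4 and turned in 1. For the cell classes 508 kept both, 59 lost the threshold and 5 gained it, and for the insulin bins the numbers were 230, 20 and 10.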
